A study of Mus musculus with 12 samples.

Results

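The liver X receptor (LXR) genes and the genes of lipid efflux and lipid making that these receptors control were followed through microarrays of bone marrow-derived macrophages (BMDMs). The 9 genes are the receptors *Nr1h2* (LXRβ) and *Nr1h3* (LXRα), the efflux transporters *Abca1* and *Abcg1*, the lipoprotein genes *Apoe* and *Lpl*, the ubiquitin ligase *Mylip*, the transcription factor *Srebf1* and the desaturase *Scd2*. They were found by the accession of their probes, which gave 11 probes among the 41174 of the array and 9 of 32301 genes or transcripts. All 9 were well above background on each of the 12 arrays and therefore passed the filter on dim probes, which left 22358 genes for the tests. The cells came from C57BL/6 mice 8 weeks old, either wild-type (WT) or *Keap1* flox/flox::*LysM*-Cre (KpCKO), and were grown from bone marrow with M-CSF for 7 days. Cre under *LysM* removes *Keap1* in myeloid cells, which lets the transcription factor Nrf2 accumulate. Whether the WT mice carried the floxed allele or Cre is not given in the sources used here. BMDMs of each genotype were left untreated (Con), given LPS and IFNγ for 6 h (M1), or given IL-4 for 6 h (M2). There were 2 cultures of 1 WT and 1 KpCKO mouse each, males in culture 1 and females in culture 2, so each of the 6 groups had 2 arrays and the 12 arrays came from 4 mice.

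LXRs are nuclear receptors that sit on DNA as heterodimers with retinoid X receptors and are switched on by oxysterols, the oxidized forms of cholesterol that build up when a cell is loaded with it. Their best-known binding element, DR4, is a direct repeat of AGGTCA with 4 bases between the copies. In macrophages, which take up whole cells and lipoproteins and cannot break the sterol ring, active LXR raises the exporters *Abca1* and *Abcg1*, the acceptor *Apoe*, the ubiquitin ligase *Mylip* that removes lipoprotein receptors, and, through *Srebf1*, the enzymes of fatty acid synthesis and desaturation. Toll-like receptor signalling is known to lower part of this programme.

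Apart from the receptors, these genes were chosen as targets of LXR. The 250 bases before each transcript start in RefSeq (mouse build GRCm38.p6) were searched for DR4 on both strands. Promoters were found for 6 of the 9 genes, both receptors among them, with 11 starts in all. Those of *Abcg1*, *Lpl* and *Scd2* are not shown here. A DR4 with at most 3 mismatches lay in the promoters of *Abca1* and *Srebf1* and in 18.5% of all 32851 promoters of this length, so the match itself is common. The whole windows of these 2 starts are printed 5′ to 3′ on the strand of the gene, with the DR4 match in capitals, which runs on the opposite strand to the gene in both. The *Abca1* window is chr4:53159896-53160145 and the *Srebf1* window, before the most downstream of its 3 starts, is chr11:60210472-60210721, both on the minus strand.
*Abca1*: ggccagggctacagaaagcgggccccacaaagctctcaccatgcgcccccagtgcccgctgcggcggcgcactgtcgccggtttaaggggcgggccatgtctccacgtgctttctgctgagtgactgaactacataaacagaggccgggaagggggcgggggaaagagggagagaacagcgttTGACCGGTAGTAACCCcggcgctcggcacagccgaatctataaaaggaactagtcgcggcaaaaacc
*Srebf1*: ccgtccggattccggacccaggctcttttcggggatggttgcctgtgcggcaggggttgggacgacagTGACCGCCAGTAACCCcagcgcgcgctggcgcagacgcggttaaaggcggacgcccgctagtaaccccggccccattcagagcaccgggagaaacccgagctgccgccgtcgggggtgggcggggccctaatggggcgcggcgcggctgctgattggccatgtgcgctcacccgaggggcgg
The matches lay 52 to 67 bases before the *Abca1* start and 167 to 182 bases before the *Srebf1* start. Read on their own strand, they are shown next with the bases that equal the DR4 half-sites in capitals.
*Abca1* DR4: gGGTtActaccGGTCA
*Srebf1* DR4: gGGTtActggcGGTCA
Each match had 3 mismatches to the half-sites, and they differed from each other at 2 of 16 positions. With at most 2 mismatches no promoter of the 6 genes searched held a DR4 (2.57% of all promoters did). With at most 4 mismatches those of 5 of the 6 genes did (70.6% of all). The antioxidant response core, which Nrf2 binds, was searched as TGACNNNGC and TGAGNNNGC, and at least 1 form lay in 23% of all promoters. Among these genes it lay only before the middle *Srebf1* start, in the TGAG form. The E-box CACGTG lay in the *Abca1* promoter and in 6.02% of all promoters, and the STAT6-type motif TTCNNNNGAA in none of the 11 windows and in 5.85% of all. A match or its lack describes these letters and this window alone.

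Levels are given as log2 intensity relative to the 75th percentile of the array, so that 0 is that percentile and 1 unit is a 2-fold change; they are read within a gene and not between genes, since each probe has its own brightness. Differences are those of limma's model of all 12 arrays with the culture as a block, with the standard error and the Benjamini-Hochberg adjusted p over all genes tested. The 75th percentile was 548 to 757 intensity units on the WT M1 arrays, 787 to 906 on the KpCKO M1 arrays and 966 to 1166 on the others. Each stimulus had its own slide and scan, so genotypes were compared within a slide, while stimulus and slide cannot be told apart. *Keap1* fell by 1.46 in Con, 1.71 in M1 and 1.81 in M2 in KpCKO cells (adjusted p = 0.0335, 0.00769 and 0.0161), and the Nrf2 target *Nqo1* rose by 3.23, 3.50 and 3.52. All 6 macrophage markers on the array were above background in every group, with a summed level of 470 to 780 in WT and 370 to 547 in KpCKO arrays, in multiples of the 75th percentile. In KpCKO M1 cells 3 of them were lower than in WT M1 cells, *Fcgr1* by 1.20, *Itgam* by 0.65 and *Adgre1* by 0.39, and over the stimuli *Fcgr1*, *Adgre1* and *Lyz2*, the gene of the *LysM* locus, were lower. The 4 dendritic cell markers on the array did not move together. *Itgax* was higher in KpCKO cells, by 2.99 in Con and 1.37 in M1 (adjusted p = 0.0108 and 0.0437), *Xcr1* was 1.05 lower in M1 (adjusted p = 0.0182), and *Flt3* and *Zbtb46* did not pass between the genotypes. The summed level of the 4 was 1.47 to 8.77 in WT and 7.81 to 26.8 in KpCKO arrays. Of 3 endothelial markers, *Kdr* was 2.71 lower in KpCKO M1 cells (adjusted p = 0.0327), where the summed level was 0.728 to 2.72 against 6.65 to 11.6 in WT M1 cells. The 4 fibroblast markers summed to 29.2 to 38.3 in WT and 21.7 to 51.6 in KpCKO arrays. Of them *Col1a1*, *Col1a2* and *Pdgfra* did not pass between the genotypes. The 8 neutrophil markers on the array summed to 7.21 to 16.6 in WT and 3.15 to 16.1 in KpCKO arrays. Over the stimuli *Mpo* was 1.06 higher and *Retnlg* 1.20 lower in KpCKO cells (adjusted p = 0.0349 and 0.00959). *S100a8*, *S100a9*, *Camp*, *Ngp* and *Ltf* did not pass between the genotypes. The part of these markers in the genotype differences was not tested. The 3 adipocyte markers summed to at most 0.0743 outside M2, and to 0.321 to 0.793 in WT M2 and 0.972 to 1.23 in KpCKO M2 cells. Of them *Adipoq* alone passed in the M2 responses, at 5.85 in WT and 6.00 in KpCKO cells (adjusted p = 0.000561 and 0.000974), while *Plin1* had 0.59 and 0.25 and *Cidec* −0.08 and −0.60. In whole cultures, fewer cells of a type and less RNA per cell cannot be told apart. For *Lyz2*, an effect of the Cre allele under *LysM* in KpCKO mice cannot be told apart from either.

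**Figure D1:**
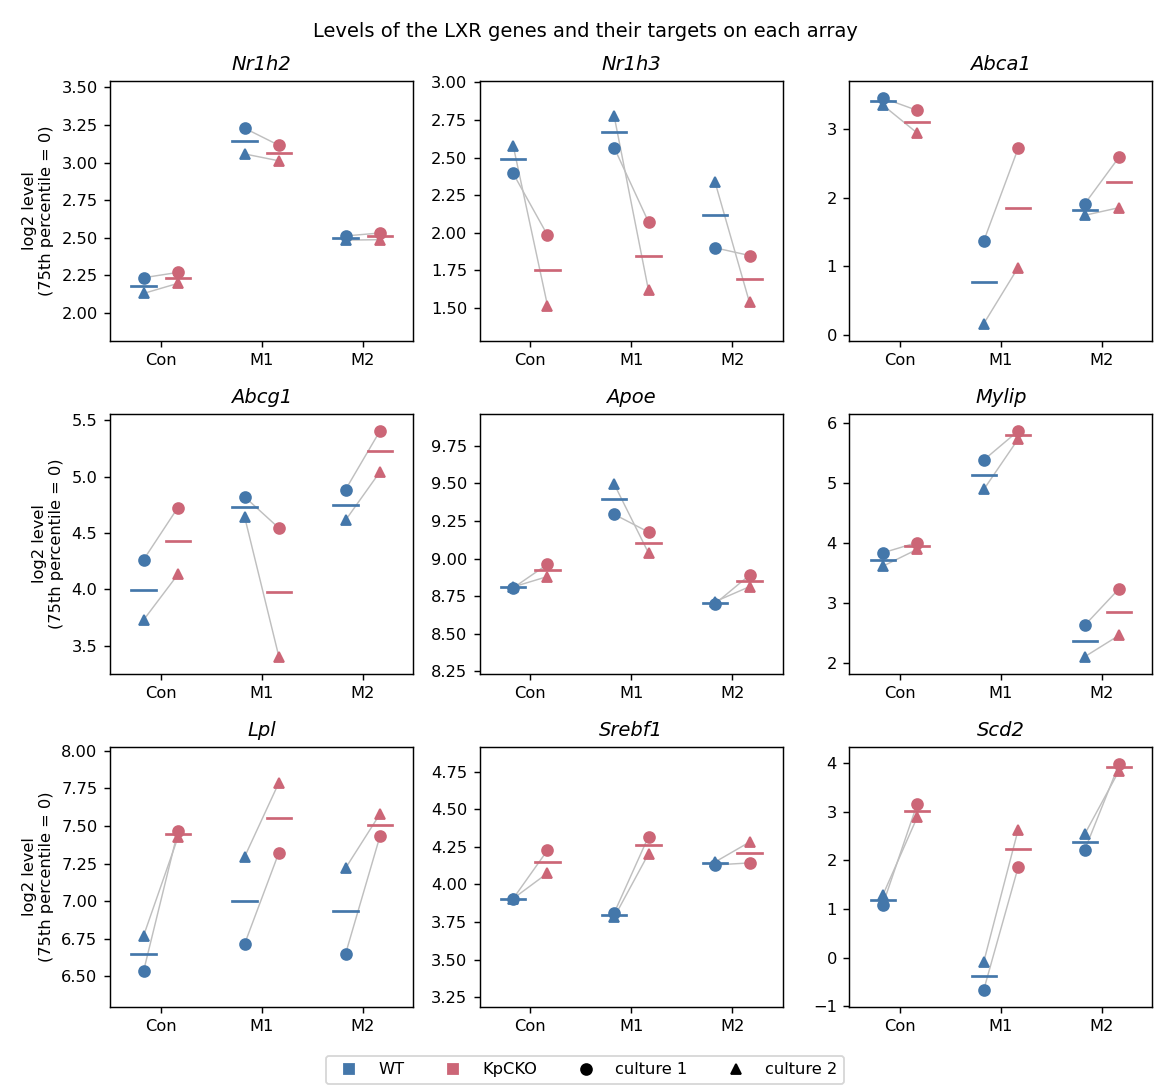
Level of the 9 genes on each array (log2 relative to the 75th percentile of the array, each panel with its own axis), by stimulus. Blue is WT and red KpCKO, circles are culture 1 and triangles culture 2, short bars are means of 2 arrays and grey lines join the arrays of a culture; the *Scd2* values of KpCKO cells lie above those of WT cells under each stimulus, and those of *Nr1h3* below them in each culture.

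M1 stimulation moved most of the 9 genes in WT cells, and in different directions. *Nr1h2*, *Abcg1*, *Mylip* and *Apoe* rose and *Abca1* and *Scd2* fell, which makes 4 of 9 higher where 34.5% of all genes tested were, and 2 lower where 28.7% were. The median difference was 0.35 over the 9 genes and 0.13 over all genes. In KpCKO cells *Nr1h2* and *Mylip* rose (24.8% of all genes did) and *Abca1* and *Scd2* fell (25.4% did), with a median of 0.11 against 0.03 over all genes. With 9 genes these counts are close to the shares of the whole array. Quantile normalization moved the median of all genes in the WT M1 response from 0.13 to −0.08. It also reversed the direction of *Apoe* and *Lpl*, as given below for each.

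IL-4 moved fewer of them. In WT M2 cells *Scd2* rose (8.64% of all genes tested did), and *Abca1* and *Mylip* fell (8.21% did). In KpCKO M2 cells *Mylip* fell, as did 4.55% of all genes. The medians over the 9 genes were 0.23 in WT and 0.06 in KpCKO cells, against −0.01 and 0.01 over all genes.

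**Figure D2:**
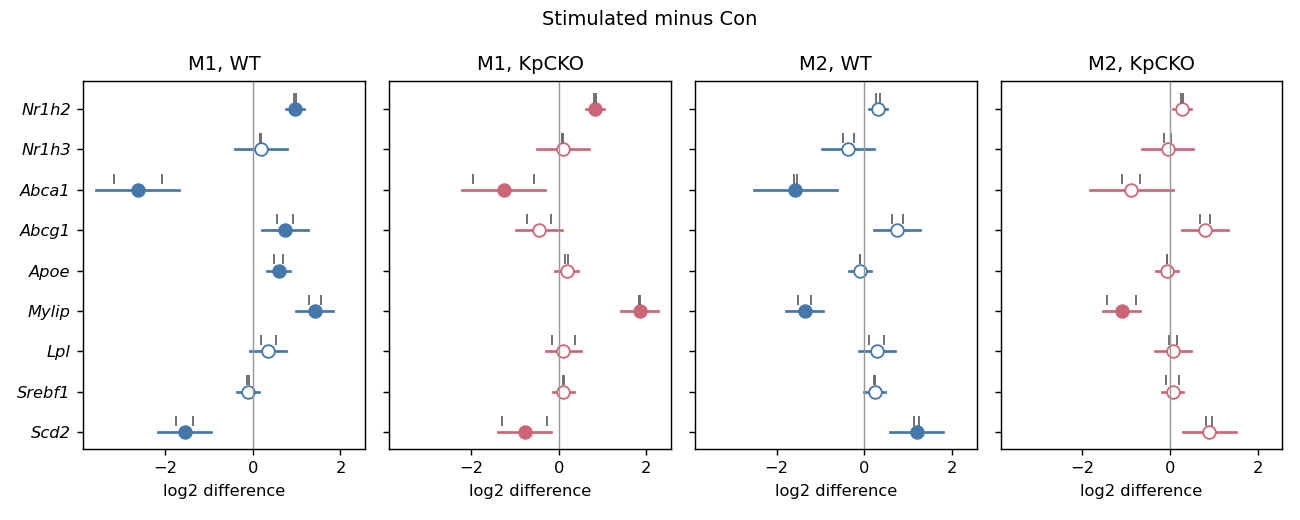
Difference between stimulated and Con cells of the same genotype on the log2 scale. Circles are the mean difference of limma's model with its 95% confidence interval, filled where the adjusted p was below 0.05, and grey ticks are the cultures; *Mylip* is above 0 in M1 and below 0 in M2 in both genotypes, and *Abca1* is filled and below 0 in 3 of the 4 panels.

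*Scd2* was higher in KpCKO cells under each stimulus. It was the 1 gene of the 9 past the test in Con, where 1.4% of all genes were higher in KpCKO cells, and in M2, where 1.28% were. In M1, *Scd2*, *Mylip* and *Srebf1* were higher (7.43% of all genes were, and 8.6% lower). In the mean of the 3 stimuli, *Scd2*, *Lpl*, *Mylip* and *Srebf1* were higher (8.62% of all genes) and *Nr1h3* was lower (8.54%). The test of that mean counts the 3 arrays of a mouse as separate, and with 1 mean for each of the 4 mice, an alternative chosen after seeing the data, no gene on the array passed, the adjusted p of *Scd2* being 0.0947 and that of the other 4 genes between 0.145 and 0.239. Fitted on the 4 arrays of a stimulus alone, limma called none of the 9 genes, and no gene on the array, between the genotypes in Con, M1 or M2. At an unadjusted p below 0.05 in the model of all arrays there were 4, 8 and 3 of the 9 genes, and 14.1%, 34.1% and 14.3% of all genes tested. The M1 and M2 responses of the genotypes differed past the test for none of the 9 genes, where 0.0716% and 0.00895% of all genes tested did; at an unadjusted p below 0.05 there were 3 for M1 and 0 for M2, and 16.4% and 2.02% of all genes.

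**Figure D3:**
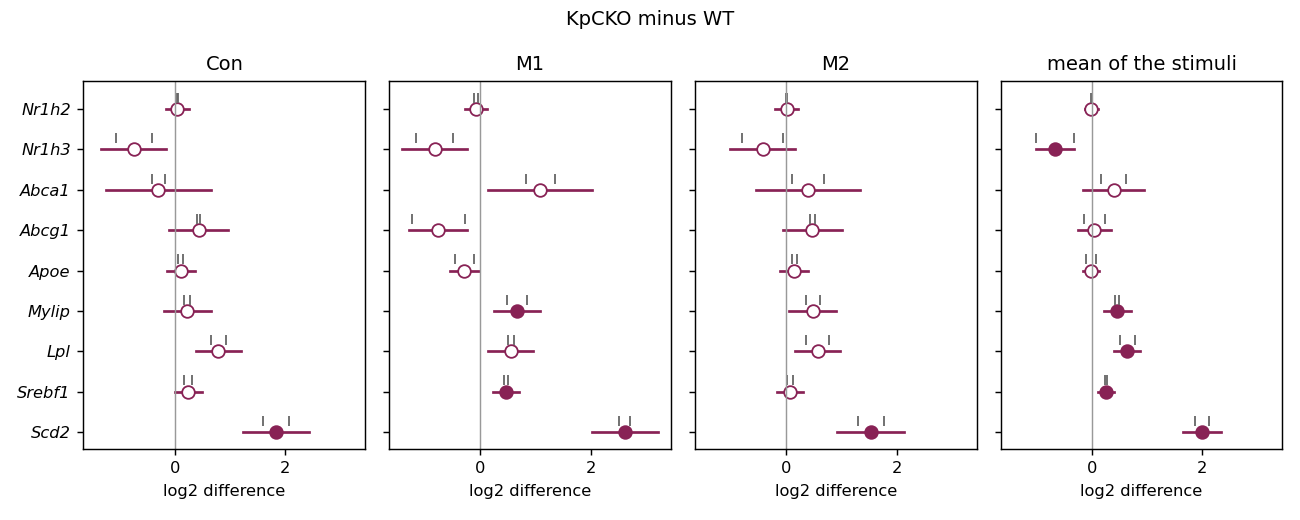
Difference between KpCKO and WT cells on the log2 scale under each stimulus and in the mean of the 3 stimuli. Circles are the mean difference of limma's model with its 95% confidence interval, filled where the adjusted p was below 0.05, and grey ticks are the cultures; *Scd2* is filled in all 4 panels, between 1.53 and 2.61, and *Nr1h2* lies within 0.08 of 0 in each.

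Of the receptors, *Nr1h2* followed the stimulus and not the genotype. In WT cells it was at 2.23 and 2.13 in Con, 3.23 and 3.06 in M1 and 2.51 and 2.48 in M2 (culture 1, then culture 2). In KpCKO cells it was at 2.27 and 2.20, 3.11 and 3.01, and 2.53 and 2.49. The M1 arrays were thus above all others, the M2 arrays above the Con arrays, and the genotypes overlapped within each stimulus. M1 stimulation raised it by 0.96 ± 0.09 (SE) in WT cells, or 1.95-fold, and by 0.83 ± 0.09 in KpCKO cells (adjusted p = 0.000104 and 0.000326). The lowest values among the alternative ways of processing were 0.61 in WT and 0.62 in KpCKO cells. The M2 difference in WT cells, 0.32 ± 0.09, just missed the threshold (adjusted p = 0.0501), and in KpCKO cells it was 0.28 (adjusted p = 0.0941). Between the genotypes the mean difference over the stimuli was −0.01, with a 95% interval from −0.12 to 0.11.

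*Nr1h3*, whose product is the LXR most abundant in macrophages and liver, differed between the genotypes. WT cells had 2.40 and 2.58 in Con, 2.57 and 2.78 in M1 and 1.90 and 2.34 in M2. KpCKO cells had 1.98 and 1.52, 2.07 and 1.62, and 1.85 and 1.54. Every KpCKO array was below the WT array of its culture, and the groups did not overlap under any stimulus, although the gap in M2 was 0.05 in culture 1 and 0.80 in culture 2. Over the stimuli *Nr1h3* fell by 0.66 ± 0.14 in KpCKO cells, 1.58-fold (adjusted p = 0.0238), with −0.32 in culture 1 and −1.01 in culture 2. The call was lost without WT Con of either culture, without culture 2 of KpCKO Con, WT M1, WT M2 or KpCKO M2 (adjusted p between 0.0521 and 0.0697). Under single stimuli the difference was −0.74 in Con, −0.83 in M1 and −0.42 in M2, none past the test (adjusted p = 0.239, 0.0652 and 0.514). No stimulus moved it past the test, the M1 difference being 0.18 in WT and 0.09 in KpCKO cells.

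*Abca1*, the transporter that hands cholesterol and phospholipid to lipid-poor apolipoprotein A-I, had its highest levels in untreated cells. WT cells had 3.45 and 3.35 in Con, 1.37 and 0.17 in M1 and 1.91 and 1.74 in M2. KpCKO cells had 3.27 and 2.94, 2.72 and 0.98, and 2.59 and 1.86. All stimulated arrays were below all Con arrays, and the M1 arrays of a genotype lay further apart, by 1.20 and 1.73, than those of any other group. In M1 *Abca1* fell by 2.63 ± 0.40 in WT cells, 6.20-fold (adjusted p = 0.0011), and by 1.26 ± 0.40 in KpCKO cells, 2.39-fold (adjusted p = 0.0347). The latter did not hold without either KpCKO Con array (adjusted p = 0.0684 and 0.18) or without KpCKO M1 of culture 2, where it was −0.64 (adjusted p = 0.207). In WT M2 cells it fell by 1.57, 2.98-fold (adjusted p = 0.0395), a call lost when any 1 of the 4 arrays was left out (0.0873 to 0.219); in KpCKO M2 cells the difference was −0.88 (adjusted p = 0.209). KpCKO cells were lower than WT cells in Con in both cultures, by 0.18 and 0.41, and higher in M1, by 1.35 and 0.82, and in M2, by 0.68 and 0.11, none past the test (adjusted p = 0.863, 0.108 and 0.742). The M1 difference of 1.08 passed once KpCKO M1 of culture 2 was left out (1.69, adjusted p = 0.0358). The M1 response differed between the genotypes by 1.38 ± 0.56, which did not pass either (adjusted p = 0.295).

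*Abcg1*, which moves sterols towards HDL, did not follow *Abca1*. WT cells had 4.26 and 3.73 in Con, 4.82 and 4.64 in M1 and 4.88 and 4.61 in M2. KpCKO cells had 4.72 and 4.13, 4.54 and 3.40, and 5.40 and 5.04. The WT arrays of both stimuli lay above those of WT Con, while the lowest *Abcg1* value of the series was a KpCKO M1 array. In WT M1 cells it rose by 0.74 ± 0.22, 1.67-fold (adjusted p = 0.0235). This call was lost with quantile normalization, where the difference was 0.09 (adjusted p = 0.713), and without either WT Con array or WT M1 of culture 2 (0.0841 to 0.141). In KpCKO M1 cells the difference was −0.46 ± 0.22 (adjusted p = 0.131), with −0.18 and −0.73 in the cultures. Without KpCKO M1 of culture 1 it was −0.83. With quantile normalization it stayed below 0 and passed limma's test (adjusted p = 0.012). IL-4 gave 0.75 in WT and 0.79 in KpCKO cells (adjusted p = 0.0619 and 0.0705). KpCKO exceeded WT by 0.43 in Con and 0.47 in M2 and was 0.76 below it in M1 (adjusted p = 0.468, 0.401 and 0.061); that last difference passed without KpCKO M1 of culture 1 (−1.14, adjusted p = 0.0276). The genotypes' M1 responses differed by −1.19 ± 0.32, with the same sign in both cultures (adjusted p = 0.177).

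*Apoe*, the gene of the apolipoprotein that accepts effluxed cholesterol, varied little. WT cells had 8.81 and 8.81 in Con, 9.29 and 9.50 in M1 and 8.70 and 8.71 in M2. KpCKO cells had 8.96 and 8.88, 9.18 and 9.04, and 8.89 and 8.81. The M1 arrays were the highest of each genotype and all values lay within 0.80. In WT M1 cells *Apoe* was 0.59 ± 0.11 higher (adjusted p = 0.00283), but −0.33 with quantile normalization (adjusted p = 0.0334), so that its direction depends on the scaling. In KpCKO M1 cells the difference was 0.19 (adjusted p = 0.197). The genotype differences ran from −0.29 in M1 to 0.14 in M2, none past the test.

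*Lpl*, the lipase that frees fatty acids from triglyceride-rich lipoproteins, was higher in KpCKO cells. WT cells had 6.53 and 6.77 in Con, 6.71 and 7.29 in M1 and 6.65 and 7.22 in M2. KpCKO cells had 7.46 and 7.42, 7.32 and 7.79, and 7.43 and 7.58. Every KpCKO array lay above both WT arrays of its stimulus. Over the stimuli *Lpl* rose by 0.64 ± 0.10, 1.56-fold (adjusted p = 0.00718), with 0.77 and 0.50 in the cultures, and the call held without any single array (adjusted p of at most 0.0287). Its other probe gave a mean difference of 0.88. By stimulus the difference was 0.79 in Con, 0.55 in M1 and 0.57 in M2, none past the test (adjusted p = 0.0795, 0.0717 and 0.198). The M1 difference was 0.35 in WT and 0.11 in KpCKO cells and did not pass, but with quantile normalization it was −0.50 and −0.42 and did (adjusted p = 0.0202 and 0.0454).

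*Mylip* encodes the E3 ligase, also called Idol, that marks lipoprotein receptors for degradation, and the stimuli moved it in opposite directions in both genotypes. WT cells had 3.83 and 3.61 in Con, 5.39 and 4.89 in M1 and 2.62 and 2.10 in M2. KpCKO cells had 4.01 and 3.89, 5.87 and 5.73, and 3.24 and 2.46. The stimuli did not overlap: M1 lay above Con and Con above M2 on all arrays. M1 raised it by 1.42 ± 0.18 in WT cells, 2.67-fold (adjusted p = 0.00046), and by 1.85 ± 0.18 in KpCKO cells, 3.61-fold (adjusted p = 0.00023). With quantile normalization the WT value was 0.76. IL-4 lowered it by 1.36 ± 0.18 in WT cells, that is 2.57-fold (adjusted p = 0.00488), and by 1.10 ± 0.18 in KpCKO cells, 2.15-fold (adjusted p = 0.0149). The KpCKO call was lost without culture 2 of KpCKO Con or KpCKO M2 (adjusted p = 0.103 and 0.0775). Its second probe gave 1.60 and 1.74 for M1 and −1.57 and −1.39 for M2 in WT and KpCKO cells.

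Each KpCKO array also exceeded the WT array of its culture for *Mylip*. The difference was 0.23 in Con, 0.66 in M1 and 0.48 in M2, of which that in M1 passed (adjusted p = 0.0483; 0.691 in Con and 0.282 in M2). That call was lost without any 1 of the 4 M1 arrays (0.0824 to 0.193). Over the stimuli *Mylip* rose by 0.46 ± 0.10, 1.37-fold (adjusted p = 0.0264). This too was lost in 8 of the 12 fits that left out 1 array, all but those without KpCKO Con of culture 1, WT M1 or KpCKO M1 of culture 1 and KpCKO M2 of culture 2 (adjusted p up to 0.086).

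*Srebf1*, the gene of the SREBP-1 factors that switch on fatty acid synthesis, differed by at most 1.38-fold in the model of all arrays with the scaling used here. WT cells had 3.91 and 3.91 in Con, 3.81 and 3.78 in M1 and 4.13 and 4.15 in M2. KpCKO cells had 4.23 and 4.08, 4.32 and 4.20, and 4.14 and 4.28. The KpCKO arrays lay above the WT arrays in Con and M1 and overlapped them in M2. In M1 *Srebf1* rose by 0.46 ± 0.10 in KpCKO cells, 1.38-fold (adjusted p = 0.0292), a call lost without any 1 of the 4 arrays (0.0559 to 0.144), and normexp background correction gave 0.75 there (adjusted p = 0.0478); in Con the difference was 0.25 and in M2 0.07 (adjusted p = 0.348 and 0.832). Over the stimuli it rose by 0.26 ± 0.06 (adjusted p = 0.0272), and this was lost in 8 of the 12 fits without 1 array (adjusted p up to 0.09), all but those without KpCKO Con of culture 2, WT M1 of culture 1, KpCKO M1 of culture 2 and KpCKO M2 of culture 1. No stimulus moved it past the test, with M1 differences of −0.11 in WT and 0.11 in KpCKO cells, yet with quantile normalization both were negative, at −0.65 and −0.31, and passed (adjusted p = 0.00151 and 0.041). The probe does not tell the SREBP-1a and SREBP-1c transcripts apart in the sources used here.

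*Scd2*, a stearoyl-CoA desaturase that puts the first double bond into saturated fatty acids, had the largest genotype difference of the 9 genes. WT cells had 1.09 and 1.28 in Con, −0.66 and −0.08 in M1 and 2.22 and 2.54 in M2. KpCKO cells had 3.15 and 2.88, 1.86 and 2.63, and 3.98 and 3.85. Within each stimulus the genotypes did not overlap, and KpCKO Con lay above WT M2. In order, the groups ran from WT M1 through WT Con to KpCKO M1 and WT M2, whose arrays overlapped, and on to KpCKO Con and KpCKO M2. KpCKO cells were higher by 1.83 ± 0.25 in Con, 3.56-fold (adjusted p = 0.018), by 2.61 ± 0.25 in M1, 6.11-fold (adjusted p = 0.00231), and by 1.53 ± 0.25 in M2, 2.89-fold (adjusted p = 0.0367). The M1 call held without any 1 of the 4 M1 arrays (adjusted p of at most 0.0119). The Con call was lost without either WT Con array or KpCKO Con of culture 1 (0.124 to 0.136), and the M2 call without any of its 4 arrays (0.0912 to 0.241). Over the stimuli the rise was 1.99 ± 0.15, 3.98-fold (adjusted p = 0.000433), with 2.11 and 1.87 in the cultures, and at most 0.00344 without 1 array.

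The stimuli moved *Scd2* in opposite directions, and the reverse of those of *Mylip*. In M1 it fell by 1.56 ± 0.25 in WT cells, 2.94-fold (adjusted p = 0.00159), and by 0.78 ± 0.25 in KpCKO cells (adjusted p = 0.0393). The KpCKO value was −0.47 without KpCKO Con of culture 1 and −0.46 without KpCKO M1 of culture 1, and no longer passed (adjusted p = 0.235 and 0.225). In WT M2 cells it rose by 1.19 ± 0.25, 2.29-fold (adjusted p = 0.0231), lost without any 1 of the 4 arrays (0.0976 to 0.129), and in KpCKO M2 cells the difference was 0.89 (adjusted p = 0.073). The genotypes' M1 responses differed by 0.78, with an interval from −0.07 to 1.63 (adjusted p = 0.339).

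The genes around these 9 were taken from 7 lists, described by counts and medians. Of all genes tested, 34.5% were higher and 28.7% lower in WT M1 than in WT Con cells. In the KpCKO M1 response 24.8% were higher and 25.4% lower. In KpCKO against WT M1 cells 7.43% were higher and 8.6% lower. Counts of a list are to be read beside these shares. Among 14 LXR partners and coregulators, M1 stimulation lowered 8 and raised 3 in WT cells, with a median of −0.52 against 0.13 over all genes. *Rxra*, the heterodimer partner of both LXRs, was among them: it went from 4.50 and 4.21 in WT Con to 1.27 and 0.73 in WT M1, a fall of 3.36 ± 0.26 (adjusted p = 5.63e-05), and fell by 2.38 in KpCKO cells. *Pparg*, a lipid-sensing nuclear receptor upstream of *Nr1h3*, fell by 4.86 in WT and 4.32 in KpCKO M1 cells. The coactivator *Ncoa1* fell by 1.34 in WT M1 cells. In KpCKO M1 cells *Rxra* was 1.23 higher than in WT M1 cells (adjusted p = 0.0269), and the list had 2 genes higher and 1 lower there. *Rxrg* was well above background on 4 arrays, and on both of a group in KpCKO Con alone, through which it passed the filter. On neither KpCKO M2 array was it so, and its difference of −1.28 from KpCKO Con is not read as a change.

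Of 8 genes that make or remove oxysterols and other sterol ligands, 3 rose and 3 fell in WT M1 cells. Of all genes 34.5% rose and 28.7% fell. *Ch25h*, which makes 25-hydroxycholesterol, went from −1.48 and −1.56 in WT Con to 6.29 and 5.93 in WT M1, a rise of 7.63 ± 0.32. In KpCKO M1 cells it was at 2.64 and 3.58, a difference of −3.00 ± 0.32 from WT M1 cells (adjusted p = 0.00308). IL-4 raised it by 2.63 in WT and 2.23 in KpCKO cells. *Cyp46a1* rose by 2.58 and *Cyp27a1*, the mitochondrial sterol 27-hydroxylase, fell by 1.77 in WT M1 cells. *Dhcr7*, which reduces 7-dehydrocholesterol to cholesterol, was 2.07 higher in KpCKO than in WT M1 cells (adjusted p = 0.0021). In that comparison 3 genes of the list were higher and 2 lower, beside 7.43% and 8.6% of all genes.

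Of 14 other LXR target genes, 8 fell and 1 rose in WT M1 cells (28.7% and 34.5% of all genes). The median was −0.50. In KpCKO M1 cells 4 fell and 1 rose (25.4% and 24.8% of all genes). The one that rose was *Mertk*, a receptor for the uptake of dying cells, by 2.13 in WT and 1.72 in KpCKO cells. *Arl4c*, a small GTPase, fell by 2.24 and 2.18. *Apoc4* fell by 2.28 and 1.37, from −2.09 and −4.01 in WT Con to −5.28 and −5.39 in WT M1. The lowest levels above background on those WT M1 arrays were −5.58 and −6.01. In the KpCKO against WT comparison in M1, 5 were higher and 1 lower (7.43% and 8.6% of all genes). *Cd5l*, a secreted protein of tissue macrophages, stood at 4.88 and 4.33 in WT Con and at 8.07 and 7.63 in KpCKO Con, and it was 3.25, 3.50 and 3.48 higher in KpCKO cells in Con, M1 and M2 (adjusted p of at most 9.57e-05). *Fasn*, fatty acid synthase, was 1.94 higher in M1 (adjusted p = 0.00186), with 2.49 and 2.05 in WT M1 and 4.15 and 4.26 in KpCKO M1. The medians of this list between the genotypes, 0.07 in Con, 0.07 in M1 and 0.23 in M2, stood beside 0.00, −0.09 and 0.02 over all genes.

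Desaturases and elongases, the enzymes beside *Scd2*, had 4 of 7 genes higher in KpCKO than in WT M1 cells (7.43% of all genes). Their median was 0.89 against −0.09 over all genes, and the other 3 did not pass. *Elovl6*, which lengthens palmitate, was 1.75 higher and *Fads1*, the delta-5 desaturase, 1.36 higher (adjusted p = 0.00788 and 0.0062). Both fell in WT M1 cells, by 2.04 and 2.85. *Scd3*, well above background on 10 arrays, rose by 1.55 in WT M1 cells. Of the 6 SREBP processing genes, 2 rose and 2 fell in WT M1 cells (34.5% and 28.7% of all genes). The median was −0.18 against 0.13 over all genes. *Srebf2* rose by 1.63 and *Insig1* by 1.23, and *Scap* and *Mbtps1*, which escort and cleave SREBPs and lie outside the rule for named genes, fell by 0.41 and 0.43. *Insig1*, which holds SREBPs in the endoplasmic reticulum, was also higher in KpCKO cells by 0.82 in Con and 0.71 in M1.

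Among 10 genes of cholesterol storage and release, 7 fell and 3 rose in WT M1 cells (28.7% and 34.5% of all genes). The median was −1.10. In KpCKO M1 cells 5 fell and 1 rose (25.4% and 24.8% of all genes). *Lipa*, lysosomal acid lipase, fell by 2.26 in WT M1 cells, *Nceh1*, which hydrolyses cholesteryl ester, by 2.53, *Npc1*, which exports cholesterol from lysosomes, by 1.97, and the lipid droplet coat gene *Plin2* by 1.45. *Lipa* stood at 3.87 and 2.33 in WT M1 and at 5.56 and 5.11 in KpCKO M1, a difference of 2.24 ± 0.32 (adjusted p = 0.00837). *Cd36*, the receptor for oxidized lipoproteins, was higher in KpCKO cells by 2.18, 2.53 and 2.13 in Con, M1 and M2 (adjusted p = 0.00258, 0.000728 and 0.0032). Between the genotypes in M1, 4 genes of the list were higher and 1 lower (7.43% and 8.6% of all genes).

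Of 8 lipoprotein receptors and lipase partners, 4 fell and 2 rose in WT M1 cells (28.7% and 34.5% of all genes). *Angptl4*, a secreted inhibitor of lipoprotein lipase, fell by 3.68 in WT and 3.43 in KpCKO M1 cells and by 1.54 in WT M2 cells. *Gpihbp1*, an anchor of that lipase, rose by 1.45 and 1.13 in M1. In WT cells *Gpihbp1* went from −2.86 and −3.21 in Con to −1.56 and −1.61 in M1. As for *Scd3*, the part of the scaling in this rise was not tested. *Lrp8* is a receptor whose protein the *Mylip* product removes. It stood at −3.74 and −4.44 in WT M1 and −0.03 and −1.87 in KpCKO M1, and it was 3.14 ± 0.28 higher in KpCKO cells (adjusted p = 0.00161). *Lrp1* fell by 1.74 in WT M1 cells. In M1, 3 genes of this list were higher in KpCKO cells (7.43% of all genes) and the other 5 did not pass. In none of the 7 lists did the M1 or the M2 response differ between the genotypes past limma's test. At an unadjusted p below 0.05 the M1 response did for 5 of 8 oxysterol genes and 3 of 7 desaturases and elongases. It did for 2 of 14 partners and coregulators, 2 of 10 storage and release genes and 2 of 8 lipoprotein receptors and lipase partners. For the other LXR targets it did for 1 of 14 and for SREBP processing for 1 of 6, beside 16.4% of all genes. The M2 response did so for 1 gene in all, and for 2.02% of all genes.

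**Figure D4:**
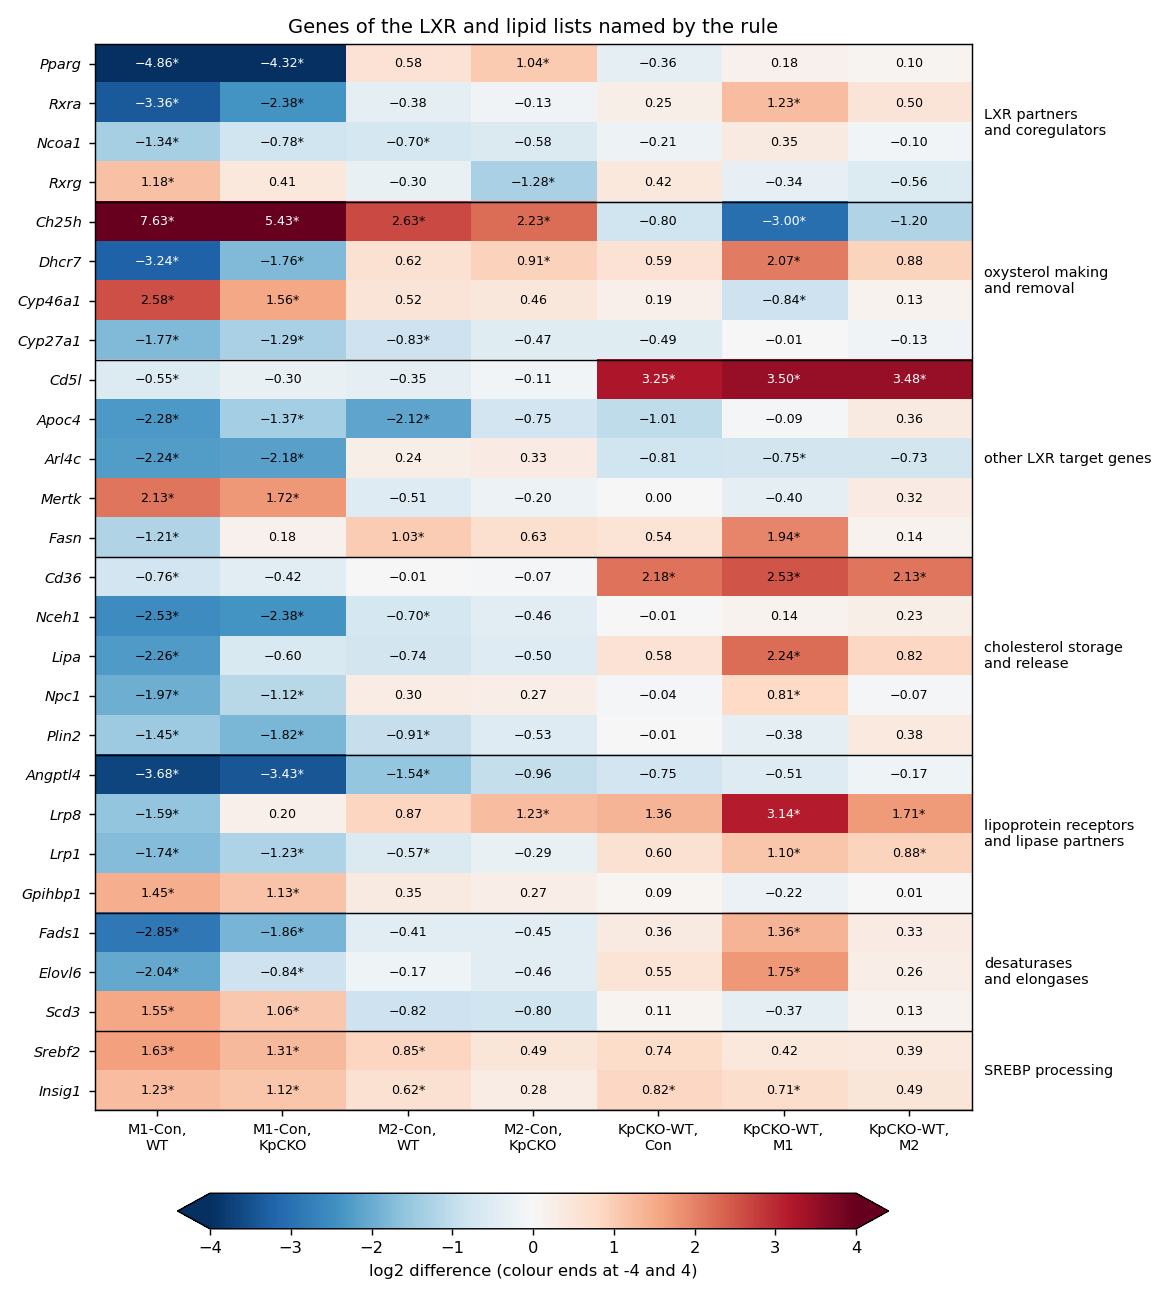
Log2 differences of 27 genes of the 7 lists that passed the test with more than a 2-fold change in both cultures in at least 1 comparison, at most 5 a list. Columns are stimulated minus Con cells of each genotype and KpCKO minus WT cells of each stimulus, blue is lower and red higher, and an asterisk marks an adjusted p below 0.05; *Ch25h* has the largest rise, 7.63 in WT M1, and *Cd5l* and *Cd36* are marked under all 3 stimuli between the genotypes.

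The genes whose levels ran most like each of the 9 were picked by Pearson's r over the 12 arrays among 12104 genes well above background on all of them; arrays share mice, cultures and slides, so r is a description. *Nr1h2* was nearest to *Apmap* (r = 0.996), *Zyx* and *Entr1*, and *Nr1h3* to *Dcn* (0.933), *Spic* and *Mis12*. *Spic* encodes a transcription factor of red pulp macrophages. *Abca1* was nearest to *Plxna2* (0.979), *Creg2* and *Rnf103*, *Abcg1* to *Vmn1r201* (0.94), *Jph4* and *Bod1*, and *Mylip* to *Ankrd33b* (0.985), *Nrip1* and *Plekha5*. *Apoe* was nearest to *Dnajb6* (0.976), *Olfr569* and *Pdcd6ip*, and *Lpl* to *Pdlim4* (0.953), *Ahi1* and *Cstf3*. *Srebf1* was nearest to *Ly9* (0.938), *Sqle* (0.931) and *Aacs*, of which *Sqle* is an enzyme of sterol synthesis. *Scd2* was nearest to *Tecr* (0.965), which encodes the last enzyme of fatty acid elongation, *Ak8* and *B4galnt1*.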

How the data were processed

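The 12 BMDM samples were run on 1-colour Agilent arrays after Cy3 labelling of total RNA. Spot files came from Agilent Feature Extraction 10.7.3.1. What the authors deposited for an array is the background-subtracted intensity of each of its 43379 spots, not scaled between arrays, next to median intensities and flags. They also deposited a log2 matrix of the same arrays made with GeneSpring, which on 40749 shared probes matches log2 intensity scaled to the 75th percentile and centred by probe (slopes 0.9996 to 1.0004). Outlier spots were left out, spots of the same probe were averaged, and the 75th percentile of an array was subtracted from its log2 intensities. Of 41174 probes, 26690 were matched by accession to 18217 symbols through RefSeq, and a gene was read from its brightest probe. A gene was kept if it was well above background on both arrays of any group.

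The groups come from the sample labels. limma 3.58.1 in R 4.3.3 was fitted to the 6 groups with the culture as a block, with 5 residual and 1.92 prior degrees of freedom, and calls were made at a Benjamini-Hochberg adjusted p of 0.05 over all genes; the script was tested on simulated data. The p-values rest on 2 cultures, and the number of arrays limits the precision. Exact permutation tests were not used, since with 2 arrays a group their smallest two-sided p is 0.333. The numbers of the arrays pair them by culture, as the description of the series says. Deviations of 22075 genes from their group mean correlated between groups of the same culture at 0.162 to 0.597 in 15 pairs of groups. The 9 genes, the lists and the tests were chosen with earlier results of these data known. The list genes named are those past the test with more than a 2-fold change the same way in both cultures in at least 1 comparison, at most 5 a list, of which 3 are not reported here, and for each of the 9 genes the 3 most alike are named. Alternatives were a normexp correction with an offset of 50, quantile normalization, the matrix of the authors, keeping all dim probes, a filter on all 12 arrays, the mean of a gene's probes, no block, the mouse as a random block, the arrays of the groups compared alone, the methods' t-test, and each array left out. Marker sums are linear intensities divided by the 75th percentile. Python 3.11.15, pandas 2.3.3 and matplotlib 3.10.9 made the tables and plots.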

Additional observations from a re-analysis of the deposited data

Results flagged for a closer look

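Groups of 2 arrays were not searched for outlying samples. In 7 comparisons both cultures of 1 group moved one way and both cultures of the other group the opposite way, and in each the difference between the groups did not pass limma's test over all genes. The M1 response of *Abcg1* was above 0 in both WT cultures and below 0 in both KpCKO cultures, a difference of −1.19 (unadjusted p = 0.00698, adjusted p = 0.177). The same difference, −1.19, separates its genotype effects in Con and M1. The M1 response of *Srebf1* was below 0 in WT and above 0 in KpCKO cells, a difference of 0.22 (adjusted p = 0.478). The genotype effect of *Abca1* was below 0 in Con and above 0 in M1 and M2, which gave differences of 1.38 (adjusted p = 0.295) and 0.69 (adjusted p = 1.0). That of *Apoe* was above 0 in Con and below 0 in M1, a difference of −0.40 (adjusted p = 0.274), and that of *Nr1h2* likewise, −0.13 (adjusted p = 0.614).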

How the results depend on the processing

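Of the 9 genes, 6, 4, 3 and 1 passed in the M1 responses of WT and KpCKO cells and the M2 responses of WT and KpCKO cells, and 1, 3, 1 and 5 between the genotypes in Con, M1, M2 and their mean. Quantile normalization gave 7 in the KpCKO M1 response. It reversed the WT M1 value of *Apoe* to −0.33 and of *Lpl* to −0.50 and the KpCKO M1 values of *Lpl* and *Srebf1* to −0.42 and −0.31; that of *Lpl* ran from −0.11 to 0.33 with 1 array left out. Without a filter on dim probes 2 passed in the KpCKO M1 response, 1 between the genotypes in M1 and 0 in M2. With a filter on all 12 arrays 5 and 3 passed in the WT and KpCKO M2 responses and 6 between the genotypes in M1, while the calls over all genes went from 16.8%, 10.2% and 16% to 22.9%, 15% and 24.3%. Without the replicate block that pairs the arrays by culture 2 passed in the KpCKO M1 response, 0 in the KpCKO M2 response, and 1, 0 and 3 between the genotypes in M1, M2 and their mean, where 5.33%, 0.863% and 8.33% of all genes passed against 16%, 1.93% and 17.2% with it. The arrays of the groups compared alone gave 2 in the KpCKO M1 response, 0 in the KpCKO M2 response and 0 between the genotypes in Con, M1 and M2, where no gene on the array passed (0.00447% in the KpCKO M2 response). With 1 mean per mouse 0 passed in the mean of the stimuli, as for all genes. The methods' t-test, adjusted, gave 0 in all 7 comparisons of 2 groups, and 6, 2, 6, 2, 2, 2 and 1 unadjusted. With each array left out in turn the counts were 5 to 6, 2 to 4, 1 and 0 to 1 in the stimulus responses and 0 to 1, 1 to 2, 0 and 2 to 5 between the genotypes, in the order given first. Neither difference between the genotypes' responses gained a call under any alternative. Over the followed values of single genes, 423 of 553 kept their direction and side of the threshold, 110 lost the call, 15 gained one and 5 reversed. The causes of these shifts were not tested.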
